A study of Rattus norvegicus with 6 samples.

Results

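Vim, Gfap, Nes and S100b are genes used to mark glial cells and their state in peripheral nerve. They were taken by gene ID from the deposited count table (Vim, ENSRNOG00000018087; Gfap, ENSRNOG00000002919; Nes, ENSRNOG00000018681; S100b, ENSRNOG00000001295), and all 4 were found among 30562 gene IDs. All 4 passed the filter on low counts that left 15581 genes for testing. RNA came from facial nerve tissue of wild type rats, taken 14 days after injury of the nerve and sequenced from poly(A)-enriched libraries. The injury model group, FNI, had 3 libraries, and the group treated after the injury with C-Gel-light had 3. C-Gel-light is, by the series title, a hydrogel with the green alga Chlorella that makes oxygen under light. Every library thus came from injured nerve, and uninjured nerve, gel without light and light without gel were not analysed here. Whether each library was made from its own animal is not given in the labels. The p-values below therefore speak only of library-to-library spread, part or all of which could be technical.

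Vimentin, glial fibrillary acidic protein (Gfap) and nestin are intermediate filament proteins, which assemble into rope-like fibres that give a cell mechanical strength. In peripheral nerve, Gfap is made by immature and non-myelinating Schwann cells and by Schwann cells that have lost contact with an axon. Vimentin is made by Schwann cells and also by fibroblasts, endothelial cells and macrophages, and nestin by immature cells of neural and muscle lineages and by some vessel cells. S100b is a small calcium-binding protein present in most Schwann cells, myelinating or not, and serves as a general marker of them. After nerve injury, Schwann cells take on a repair state in which filament genes are known to be active. The series design asks how the treatment acted on repair at this time, and these genes bear on the glial side of that question.

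The 4 genes lay at very different levels, on the scale of the deposited FPKM, which corrects for gene length and library total. Vim was the most abundant, at 2976, 3065 and 3755 FPKM in FNI replicates 1 to 3 and 2055, 2342 and 1983 FPKM in C-Gel-light replicates 1 to 3. It ranked between 9 and 22 among all gene IDs in each library. S100b followed, with 556, 785 and 565 FPKM in FNI and 666, 917 and 600.4 FPKM with C-Gel-light, at ranks 31 to 40. A general Schwann cell marker was therefore among the 40 most abundant genes of every library of this tissue. Other defining Schwann cell markers were not analysed here.

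Nes was found at 80.9, 82.9 and 110.3 FPKM in FNI replicates 1 to 3 and at 77.1, 117 and 74.0 FPKM in C-Gel-light replicates 1 to 3, at ranks 321 to 621. Gfap was the least abundant, at 10.8, 9.78 and 8.72 FPKM in FNI and 4.77, 4.31 and 8.96 FPKM with C-Gel-light, at ranks 5851 to 8857. The order Vim, S100b, Nes, Gfap held in all 6 libraries, and no range of a gene over the 6 libraries overlapped that of its neighbour. Within a library Vim stood 2.55 to 6.64 times above S100b, S100b 5.12 to 9.47 times above Nes, and Nes 7.50 to 27.3 times above Gfap. Gfap, the classical glial filament, was thus a gene of modest abundance here, while Vim carried most of the filament RNA among the 3 filament genes.

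**Figure D1:**
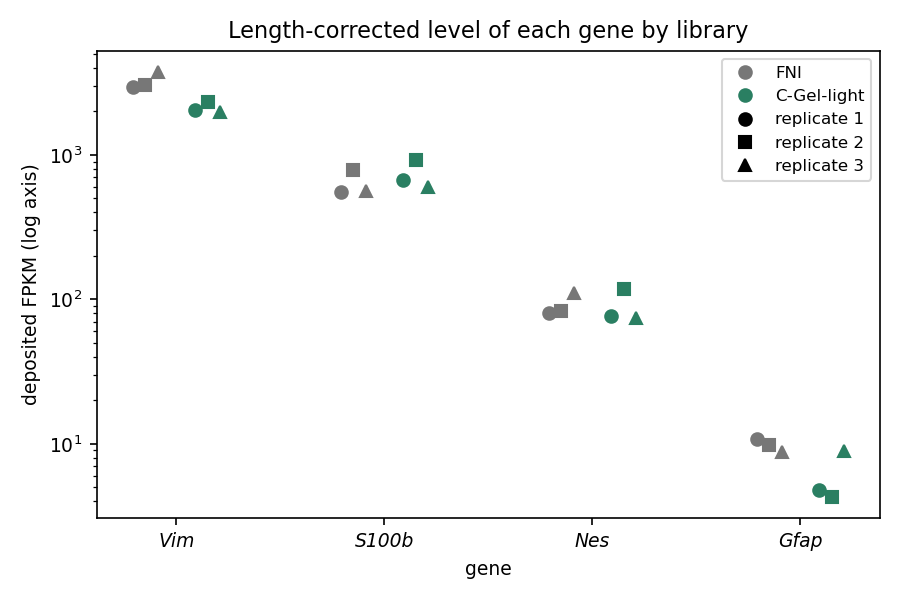
Deposited FPKM of each gene (log axis) in the 3 FNI libraries (grey) and the 3 C-Gel-light libraries (green), with 1 symbol per replicate number. The genes form 4 separate levels, from Vim at 1983 to 3755 FPKM down to Gfap at 4.31 to 10.8 FPKM, and the groups overlap for all but Vim.

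The promoters of Vim and S100b are shown because these are the 2 most abundant of the genes and, as described further on, the ratio between them did not overlap between the groups. Each is the stretch of 250 bases before the transcript start, 5′ to 3′ on the gene's strand, from RefSeq on build GRCr8, which is a later build than the mRatBN7.2 named for the deposited files. That of Vim lies at chr17:81577011-81577260 (plus strand) and that of S100b at chr20:12381082-12381331 (minus strand). The S100b stretch partly overlaps the annotated gene (chr20:12372345-12381159), so the transcript start used lies inside the gene span. The Vim stretch ends where the annotated gene begins. Capitals mark matches to the motifs searched, except the E-box.
Vim: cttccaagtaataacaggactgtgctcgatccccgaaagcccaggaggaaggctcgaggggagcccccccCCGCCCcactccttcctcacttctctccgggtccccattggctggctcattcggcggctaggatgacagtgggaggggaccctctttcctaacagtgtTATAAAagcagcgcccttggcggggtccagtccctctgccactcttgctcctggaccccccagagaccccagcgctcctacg
S100b: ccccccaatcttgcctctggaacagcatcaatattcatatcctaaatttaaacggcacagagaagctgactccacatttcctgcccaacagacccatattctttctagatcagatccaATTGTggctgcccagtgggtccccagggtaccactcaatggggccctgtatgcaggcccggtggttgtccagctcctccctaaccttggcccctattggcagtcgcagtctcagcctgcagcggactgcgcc

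Both strands were searched for AP-1 (TGANTCA), STAT (TTCNNNGAA), SOX (ACAAAG and ACAAT), TEAD (GGAATG), E-box (CANNTG), TATA box (TATAAA) and GC box (GGGCGG) letters. The Vim promoter held a TATA box that began 82 bases before the start and a GC box on the opposite strand that began 180 bases before it. The S100b promoter held 1 match to the SOX letters ACAAT, on the opposite strand, which overlapped an E-box. The Nes promoter held 2 GC boxes on the opposite strand, and in the Gfap promoter none of these letters was found. The Nes stretch (chr2:175736338-175736587) lies wholly inside the annotated gene (chr2:175735715-175745631), so its transcript start is also an internal one. Over all 33469 promoters of this length in the table, 12.9% held the TATA box, 30.5% the GC box, 30.0% ACAAT and 65.5% the E-box. A match is a description of the letters and shows no binding.

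None of the 4 genes differed between C-Gel-light and FNI at an adjusted p under 0.05 in edgeR's quasi-likelihood test, against 14.8% of all tested genes (7.07% higher and 7.7% lower). In these libraries the point estimates went in different directions. Those of Vim and Gfap were lower with C-Gel-light and those of S100b and Nes higher, and the 95% interval of each included no change. At an unadjusted p under 0.05 the same test gave 0 of the 4, against 32.4% of tested genes. At an adjusted p under 0.05 DESeq2 called 0 of the 4, against 3618 of 15581 tested genes, and limma-voom 0, against 2264. Unadjusted, DESeq2 gave 1 (Vim) and limma-voom 0. The share of all tested genes at that level was not computed for these methods, so the 1 cannot be set beside a background. The median log2 fold change of the 4 was -0.06, beside -0.01 over all tested genes, and the median size regardless of sign was 0.40 beside 0.28. The labels give each library a batch number of its own, and do not say what it marks, so batch and group cannot be told apart.

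Vim was the only 1 of the 4 whose groups did not overlap. Its level in CPM, the count relative to the library size after scaling by TMM factors, was 4853, 5136 and 5820.3 in FNI replicates 1 to 3 and 4189.9, 4578 and 3563 in C-Gel-light replicates 1 to 3. The highest C-Gel-light library lay just under the lowest FNI library. Groups failed to overlap for 39.1% of tested genes, so 1 of 4 (25%) is no more than the background. The means were 5269.9 ± 497 CPM in FNI and 4111 ± 512 CPM with C-Gel-light (SD, n = 3 each). The log2 fold change was -0.36 (SE 0.18, 95% interval -0.78 to 0.07), or 1.28-fold lower, with an adjusted p of 0.219 by edgeR. With this SE and the cut-off of this fit, only a change of 1.59-fold or more would have passed the threshold.

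The value for Vim rests on how libraries are scaled. The TMM factors, which correct for counts taken up by a few abundant genes, ranged over 0.866 to 0.983 in the treated libraries and over 1.05 to 1.14 in the FNI libraries. With library totals in their place, the median log2 fold change of all tested genes moved from -0.01 to -0.26. That of Vim then moved to -0.62 (adjusted p = 0.0373 by edgeR), in an analysis that called 21.1% of tested genes lower. With limma-voom after cyclic loess scaling it was -0.77 (adjusted p = 0.0187), where 7.49% of tested genes were called lower. By its share of all counts Vim made up 0.525%, 0.541% and 0.663% of FNI libraries and 0.363%, 0.413% and 0.35% of C-Gel-light libraries. Vim was lower with C-Gel-light under each of 19 alternative analyses, which the separation of the groups made likely, and passed the threshold in those 2.

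For Gfap the FNI replicates 1 to 3 gave 33.3, 31.0 and 25.6 CPM (932, 758 and 669 counts). The C-Gel-light replicates 1 to 3 gave 18.4, 15.9 and 30.5 CPM (462, 392 and 750 counts). Replicates 1 and 2 of C-Gel-light lay below every FNI library, whereas replicate 3 lay among the FNI libraries. The means were 29.99 ± 3.97 CPM in FNI and 21.6 ± 7.78 CPM with C-Gel-light (SD, n = 3 each). The log2 fold change was -0.47 (SE 0.25, 95% interval -1.05 to 0.11), or 1.39-fold lower, with an adjusted p of 0.232 by edgeR. A change of 1.89-fold or more would have been needed to pass in this fit of all 6 libraries. This call was set by 1 library: without C-Gel-light replicate 3 the log2 fold change was -0.79 (adjusted p = 0.0323, with 4.81% of tested genes called lower), and without C-Gel-light replicate 2 it was -0.29 (adjusted p = 0.457). Nothing in the labels sets replicate 3 apart. Its TMM factor, 0.983, was nearer to those of FNI than the 0.866 and 0.903 of C-Gel-light replicates 1 and 2. Over all genes its counts differed less from FNI replicate 2 (chi-square per degree of freedom 81.4) than from C-Gel-light replicate 1 (115.7). They differed least from C-Gel-light replicate 2 (79.8). Whether this bears on Gfap was not tested.

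S100b was measured at 976, 1416 and 943 CPM in FNI replicates 1 to 3 and at 1463, 1930.5 and 1161 CPM in C-Gel-light replicates 1 to 3. FNI replicate 2 lay above C-Gel-light replicate 3 and just under replicate 1, so the groups overlapped. The means were 1112 ± 264 CPM in FNI and 1518 ± 388 CPM with C-Gel-light (SD, n = 3 each). The log2 fold change was 0.45 (SE 0.24, 95% interval -0.12 to 1.02), or 1.37-fold higher, with an adjusted p of 0.248 by edgeR. A change of 1.87-fold or more would have passed in this fit. The value was smaller with library totals, at 0.20, and with cyclic loess, at 0.16, and without C-Gel-light replicate 2 it was 0.24. In bulk tissue, more cells that make S100b and more S100b RNA per cell cannot be told apart, and which cells made it was not tested.

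Nes was the gene with the smallest difference. It stood at 479, 504 and 620.1 CPM in FNI replicates 1 to 3 and 569.7, 832 and 482 CPM in C-Gel-light replicates 1 to 3. On this scale only C-Gel-light replicate 2 lay outside the FNI range, above it. In FPKM, C-Gel-light replicates 1 and 3 (77.1 and 74.0) also lay outside it, below the lowest FNI library (80.9). The means were 534 ± 75.4 CPM in FNI and 628 ± 182 CPM with C-Gel-light (SD, n = 3 each). The log2 fold change was 0.23 (SE 0.22, 95% interval -0.28 to 0.75; adjusted p = 0.502 by edgeR). Its sign rested on 1 library and on the scaling: it was -0.02 without C-Gel-light replicate 2 and -0.03 with library totals. No direction can be given for Nes, and the interval leaves room for changes from 1.22-fold lower to 1.68-fold higher.

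**Figure D2:**
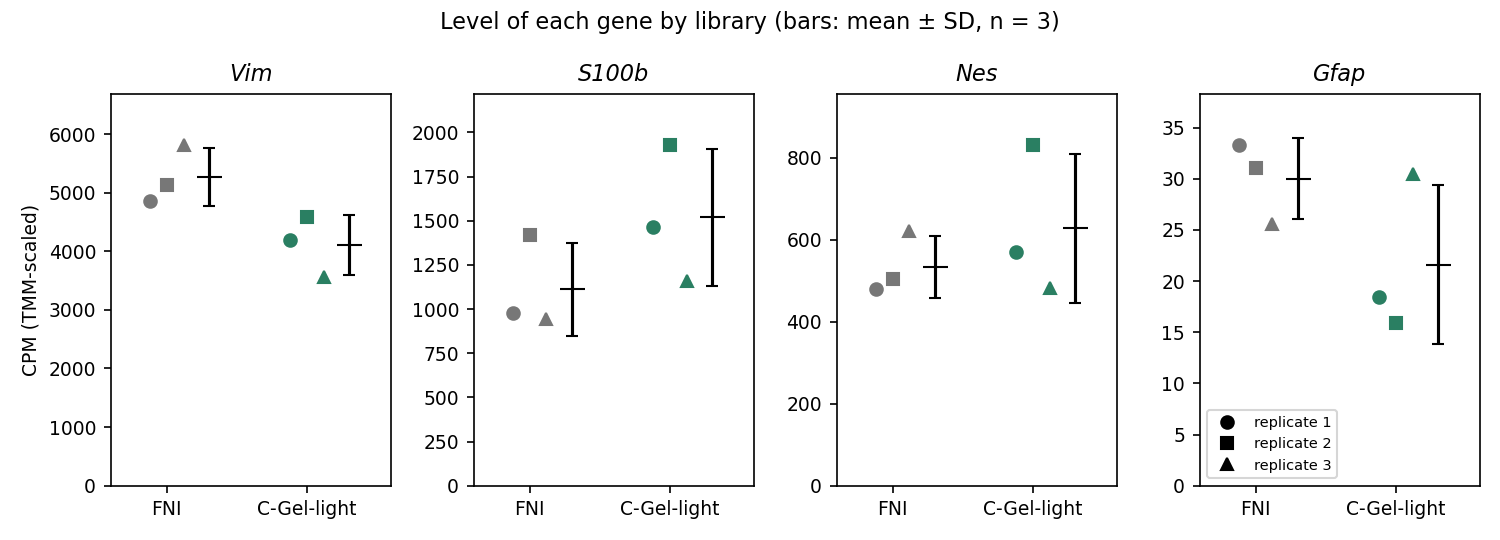
TMM-scaled CPM of each gene in the FNI (grey) and C-Gel-light (green) libraries, with 1 symbol per replicate number and black bars for the mean ± SD (n = 3). Vim shows no overlap between the groups, Gfap has C-Gel-light replicate 3 among the FNI libraries, and S100b and Nes have their highest value in C-Gel-light replicate 2.

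**Figure D3:**
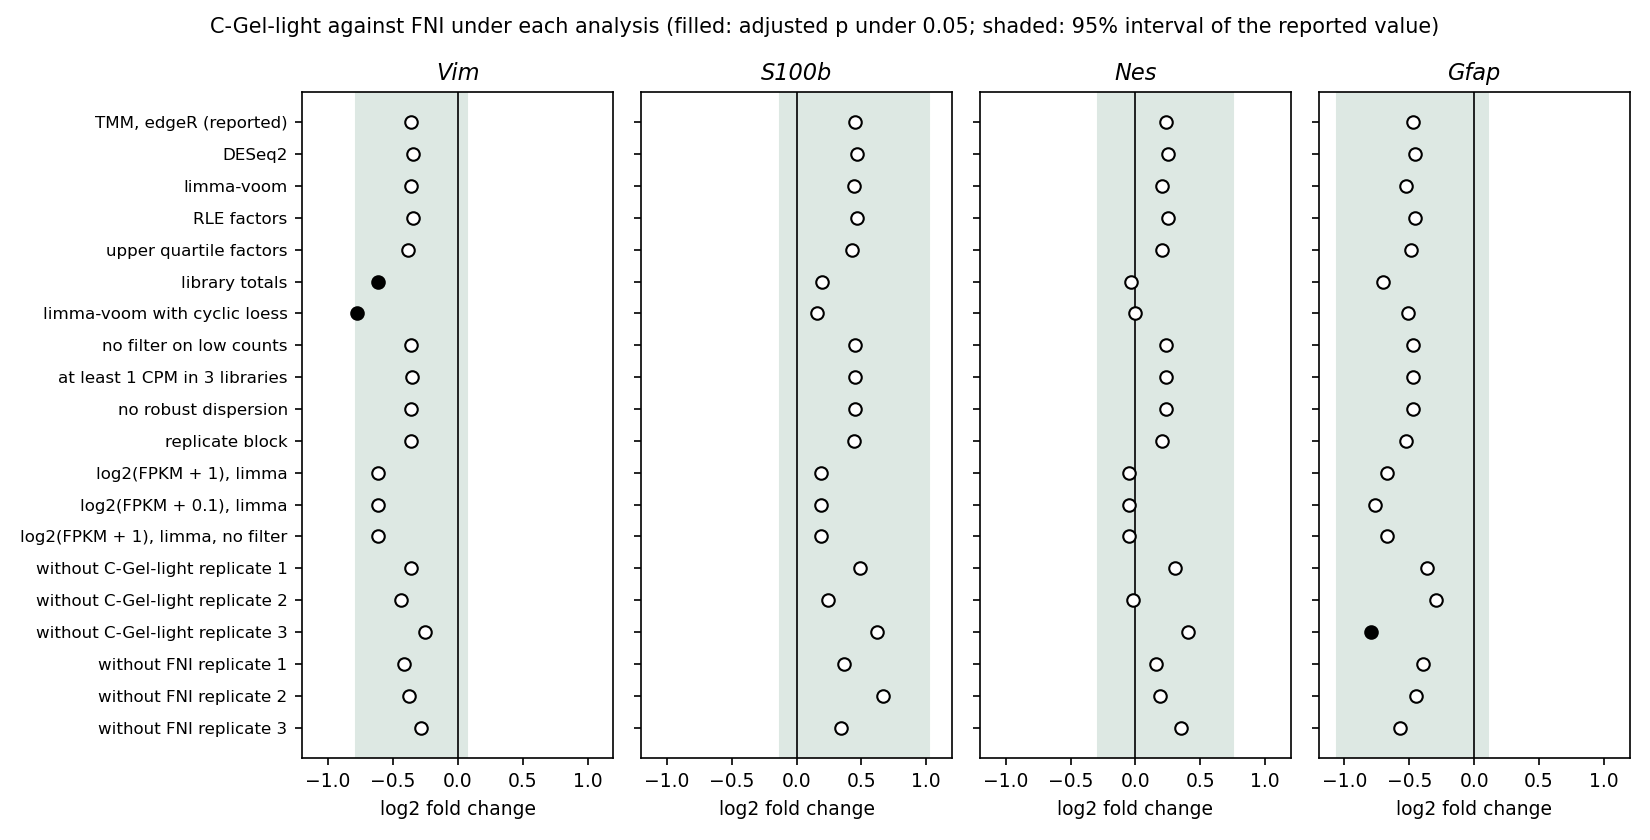
Log2 fold change of C-Gel-light over FNI for each gene (columns) under the reported analysis and 19 alternatives (rows); filled points have an adjusted p under 0.05 and the shaded band is the 95% interval of the reported value. There are 3 filled points: Vim with library totals and with cyclic loess, and Gfap without C-Gel-light replicate 3. Nes lies on both sides of 0.

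Counting error was not what limited these comparisons. For Vim, S100b and Nes the error expected from counting alone was at most 0.918% of the value in any library, and for Gfap at most 5.05%. The spread between libraries of a group was larger, with a coefficient of variation of CPM of 9.44% (Vim) to 23.8% (S100b) in FNI and 12.5% (Vim) to 36.0% (Gfap) with C-Gel-light. On the log2 CPM scale the SDs of S100b were 0.33 in FNI and 0.37 with C-Gel-light, those of Gfap 0.20 and 0.49, and those of Nes 0.20 and 0.40. The median SDs over all tested genes were 0.17 and 0.21. These 3 marker genes thus varied more between C-Gel-light libraries than the median gene did, and Vim, at 0.13 and 0.18, less. Total counts per library ran from 22957382 to 28997855.

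The ratio of 2 genes within a library needs no scaling factor, so it shows whether the genes changed unequally, though not which of them moved. The 6 pairs of the 4 genes were compared, with p-values adjusted over the 6 (two-sided exact permutation test, for which 0.1 is the smallest p that 3 against 3 libraries allow). The count of Vim was 4.97, 3.63 and 6.17 times that of S100b in FNI replicates 1 to 3, and 2.86, 2.37 and 3.07 times in C-Gel-light replicates 1 to 3. All C-Gel-light libraries lay below all FNI libraries. Ratios of tested genes to S100b failed to overlap between the groups in 20.6% of cases and ratios to Vim in 47%, so such a separation was common. On the log2 scale the means were 2.27 ± 0.39 in FNI and 1.46 ± 0.19 with C-Gel-light (SD, n = 3 each), a difference of -0.81, or 1.75-fold (exact permutation p = 0.1, adjusted p = 0.3). This p cannot pass 0.05 in this design, and the difference is given as a description of these libraries.

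Vim also exceeded Nes by less with C-Gel-light. Its count was 10.1, 10.2 and 9.39 times that of Nes in FNI replicates 1 to 3 and 7.35, 5.50 and 7.39 times in C-Gel-light replicates 1 to 3, again with no overlap. Ratios of tested genes to Vim failed to overlap in 47% of cases, so this is no more than the background. The log2 ratio of Nes to Vim was -3.31 ± 0.07 in FNI and -2.74 ± 0.24 with C-Gel-light (SD, n = 3 each), a difference of 0.57, or 1.48-fold (exact permutation p = 0.1, adjusted p = 0.3). The 3 FNI libraries lay close together in this ratio. When 1 library at a time was left out, the difference for Nes to Vim ran from 0.43 to 0.64 and that for Vim to S100b from -1.01 to -0.63. Both were found in pairs with Vim, so they are not independent of each other, and Vim alone already showed no overlap.

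The other 4 pairs overlapped between the groups. S100b exceeded Gfap 29.3-, 45.6- and 36.8-fold in counts in FNI replicates 1 to 3 and 79.4-, 120.9- and 38.1-fold in C-Gel-light replicates 1 to 3. The log2 ratio of Gfap to S100b differed by -0.96 (exact permutation p = 0.2, adjusted p = 0.4), with C-Gel-light replicate 3 inside the FNI range. Gfap to Nes differed by -0.73 (exact permutation p = 0.3, adjusted p = 0.45), Nes to S100b by -0.24 (exact permutation p = 0.5, adjusted p = 0.6) and Gfap to Vim by -0.16 (exact permutation p = 0.7, adjusted p = 0.7). The size of each of these differences depended on single libraries, and for Gfap to Vim the sign did too. Without C-Gel-light replicate 2 Gfap to S100b was -0.59, Gfap to Nes -0.31 and Gfap to Vim 0.11, and without C-Gel-light replicate 3 they were -1.42, -1.17 and -0.54. Nes to S100b was -0.46 without FNI replicate 2 and -0.02 without FNI replicate 3. The exact permutation test allows no p below 0.1 with 3 against 3 libraries, so no pair could have passed the threshold. Whether the filament genes Gfap and Vim, both with lower point estimates, changed unequally is thus not decided by it. The same holds for S100b and Nes, both with higher point estimates.

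**Figure D4:**
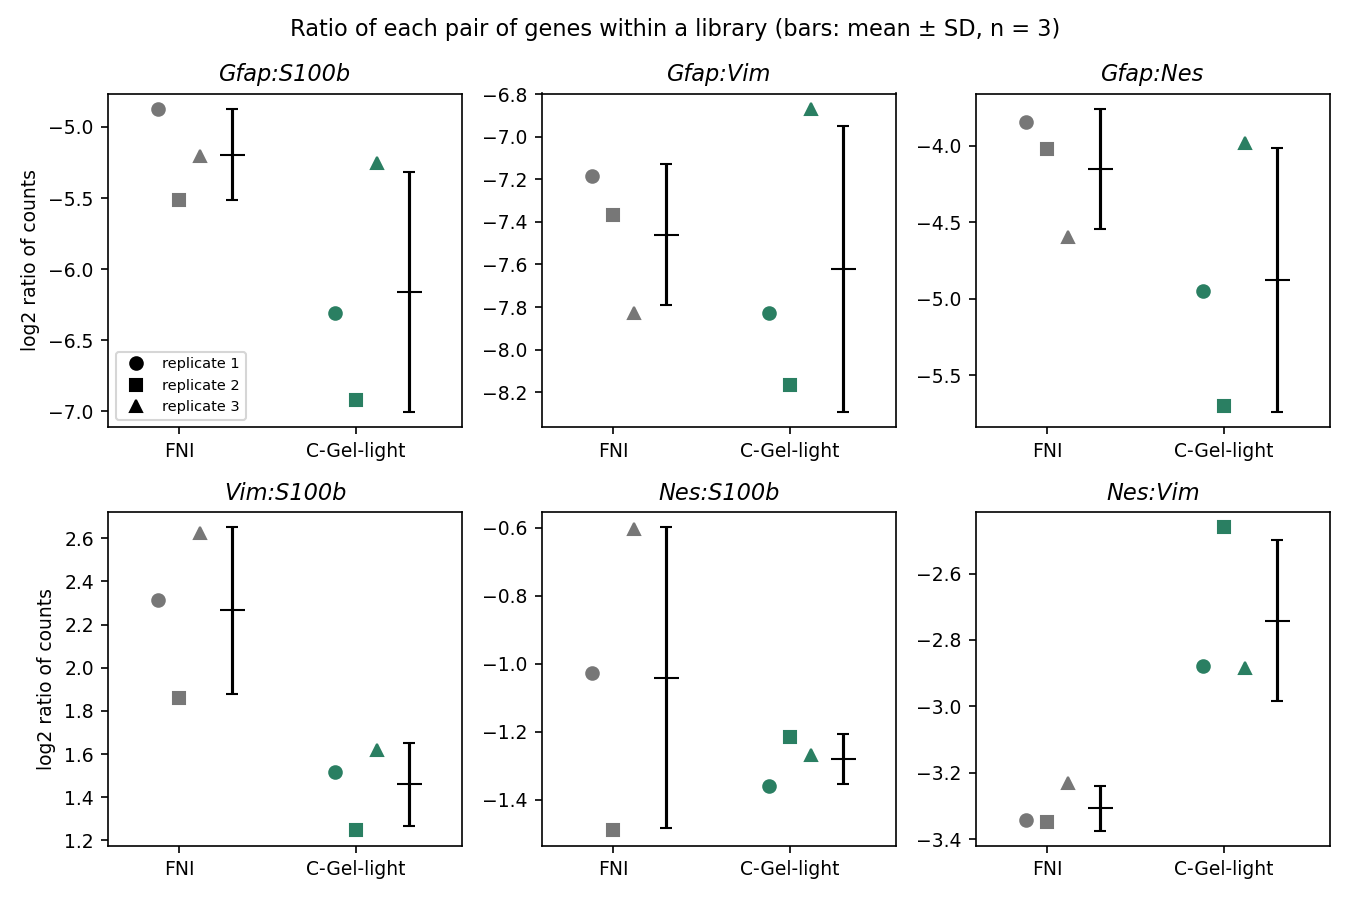
Log2 ratio of the counts of each pair of genes within a library, for FNI (grey) and C-Gel-light (green), with 1 symbol per replicate number and black bars for the mean ± SD (n = 3). The groups are apart in Vim to S100b (2.27 against 1.46) and in Nes to Vim (-3.31 against -2.74), and overlap in the other 4 pairs. Over all tested genes, ratios to S100b failed to overlap in 20.6% of cases and ratios to Vim in 47%.

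Among the 3 C-Gel-light libraries the genes varied in a pattern. Replicate 2 had the highest level of Vim, S100b and Nes and the lowest of Gfap, and replicate 3 the lowest of Vim, S100b and Nes and the highest of Gfap. In FNI, replicate 3 had the most Vim and Nes RNA and the least Gfap RNA. S100b did not follow Vim and Nes there, and was highest in FNI replicate 2. Its lowest FNI library was replicate 3 in CPM (943, beside 976 in replicate 1) but replicate 1 in FPKM (556, beside 565 in replicate 3). Apart from S100b in FNI, these orders were the same in CPM and in FPKM. With 3 libraries per group this is a description only.

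The profiles of the 4 genes over the 6 libraries were also set beside those of 10369 other genes whose log2 CPM averaged 3 or more. Likeness was taken as the root mean square difference between log2 CPM values, each gene centred on its own mean. The gene closest to Vim was ENSRNOG00000047137, at a difference of 0.03 against a median of 0.28 for all candidates, and that closest to Gfap was ENSRNOG00000058457, at 0.11 against 0.44. The closest to S100b was ENSRNOG00000012378, at 0.08 against 0.40, and the closest to Nes was ENSRNOG00000016728, at 0.07 against 0.33. Among the 4 genes themselves the most alike were S100b and Nes, at 0.29, and the least alike Gfap and S100b, at 0.71. Each closest gene was chosen as the minimum over all candidates, so its closeness is a description only.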

How the data were processed

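For each of 6 libraries the authors deposited raw counts, in whole numbers and by Ensembl ID, and FPKM values. Per the submitters' processing notes the tools were RSEM 1.2.29, STAR 2.4.2a, edgeR 3.28.1, fastp 0.22.0 and FastQC 0.11.9 and the build mRatBN7.2, with no roles given. If RSEM made the counts, they are rounded estimates. The deposited FPKM was the count over library total and gene length (Vim 1765, S100b 1900, Nes 6400, Gfap 3343 bases), so it carries no correction for composition.

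Counts were tested with edgeR 4.0.16 in R 4.3.3 (quasi-likelihood, robust, TMM factors, filterByExpr at a minimum count of 10, group as the only term). P-values were adjusted by Benjamini-Hochberg over 15581 genes. SE was the log2 fold change divided by the square root of F, and the prior count for log2 CPM was 2. Ratios used counts plus 0.5 and exact permutation tests in scipy 1.17.1. Alternatives used DESeq2 1.42.0, limma 3.58.1, other scalings and filters, FPKM, a replicate block and each library left out.

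The members and lists were chosen with earlier results of these data known. Named were the 4 members, with their symbols as given with their IDs, and for each the gene with the most similar profile. The files hold IDs without symbols and 0 Ensembl IDs were in the RefSeq table, so the 14 lists of cell type markers, intermediate filament and S100 genes were not analysed here. Whether other cell types moved with these genes was not tested.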

Additional observations from a re-analysis of the deposited data

How the results depend on the processing

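Of 19 alternatives per gene, Vim and Gfap kept a lower and S100b a higher value with C-Gel-light in all 19, and Nes its higher value in 13. Against 0 of 4 genes changed, library totals and cyclic loess each gave 1, Vim, at -0.62 and -0.77, where 25.3% and 14.3% of all tested genes (3937 and 2223) were called. Nes turned to -0.031 with library totals, to -0.0049 with cyclic loess and to -0.048 by FPKM with a pseudocount of 1 (with or without the filter) or 0.1. Leaving out 1 library at a time gave 0 to 1 genes changed (Gfap, without C-Gel-light replicate 3, where 10.2% of tested genes were called), and log2 fold changes of -0.79 to -0.29 (Gfap), -0.44 to -0.25 (Vim), 0.24 to 0.66 (S100b) and -0.019 to 0.40 (Nes). The log2 ratio differences then ran from -0.54 to 0.11 (Gfap to Vim), -1.42 to -0.59 (Gfap to S100b), -1.17 to -0.31 (Gfap to Nes) and -0.46 to -0.02 (Nes to S100b). Adjusted p-values over the alternatives were 0.0323 to 0.457 (Gfap), 0.0187 to 0.481 (Vim), 0.089 to 0.642 (S100b) and 0.254 to 0.988 (Nes). The causes of these shifts were not tested.

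Of all tested genes 2301 changed (1101 higher, 1200 lower). DESeq2 gave 3618, library totals 3937 (645 higher, 3292 lower), FPKM 3654 with a pseudocount of 1 and 3741 with 0.1, an adjusted p under 0.1 3876 and an added 2-fold minimum 1024. Leaving out 1 library gave 797 to 1726. With the replicate number as a block, 1999 genes and 0 of the 4 changed, with S100b at 0.44 (adjusted p = 0.089), Vim at -0.36, Gfap at -0.52 and Nes at 0.20. Whether the numbers pair the libraries is not given in the labels. Same-numbered libraries had deviations from their group means correlated at -0.06, 0.03 and 0.09, and 3 of 6 correlated best with their own number. With 3 libraries per group these values can neither show nor exclude a pairing. The block leaves the mean ratio differences the same by arithmetic, and 0.25 is the smallest p it allows for them. In the reported analysis, changes under about 1.59-fold (Vim) to 1.89-fold (Gfap) could not pass. These limits hold for its SEs and its cut-off (largest unadjusted p among called genes 0.00736 by edgeR), and differ in the alternatives.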
